A study of Homo sapiens with 2 samples.

Results

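The regions described are the mERG peaks on chromosome 8 whose start lies at 35 Mb or beyond on hg19. They were selected on position from the peak list itself, and 1586 of the 18070 peaks in the list met that rule. Only 8 peaks lay on chromosome 8 below 35 Mb. The cells were VCaP, a line from prostate cancer with the TMPRSS2-ERG fusion, and mERG is ERG that EZH2 has mono-methylated at a lysine. The experiment comprised 1 mERG ChIP library and 1 control library, which the labels describe as input in the title and as IgG in the antibody field. Peaks were called by the authors on this pair, with no replicate, so no value below can be set against a replicate error. Each peak has a score from MACS (the negative log10 of its p-value, times 10), so a higher score means a smaller p-value, and the read depth behind it is unknown.

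ERG is a transcription factor of the ETS family, which binds DNA at a GGAA core, and in prostate cancer it is often driven by the androgen-responsive promoter of TMPRSS2. Chromosome 8 is among the chromosomes most often rearranged in this disease, with loss of the short arm and gain of the long arm, where MYC lies. The 8q24 interval upstream of MYC also holds inherited risk loci and several long non-coding RNAs named after prostate or colon cancer.

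Beyond 35 Mb, mERG peaks numbered 14.2 per Mb of chromosome, against 0.229 per Mb below, a ratio of 62.3. This difference is what the rule used, and it is given as a description with no test. The last peak below the boundary lay at chr8:28940077-28940471 in an intron of KIF13B, a kinesin gene, with a score of 44.4. The first peak beyond it lay at chr8:36303377-36303687, an intergenic site with a score of 39.7 named for the potassium channel gene KCNU1. Between them 7.36 Mb held no peak, so the boundary falls inside an empty stretch. Protein-coding gene bodies covered 49.6% of the sequence below 35 Mb and 39.5% beyond it. Per Mb of protein-coding gene body, peak centres inside genes numbered 0.461 below and 32.5 beyond the boundary. The regions beyond 35 Mb made up 8.78% of all peaks of the list (Wilson 95% interval 8.37 to 9.20%, counting error only) on 3.60% of the primary genome. Chromosome 17 had 15.3 peaks per Mb and chromosome 20 had 13.2, so the density beyond 35 Mb lay between those of these densely covered chromosomes. Those are values for whole chromosomes, whereas the stretch leaves out the sparse part below 35 Mb. Chromosome 8 as a whole had 10.9 peaks per Mb. DNA copy number was not analysed here, and its part in these densities was not tested.

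The 8 peaks below 35 Mb were scattered and weak. They were named for ANGPT2, an angiopoietin, the microRNA gene MIR4660, the centriolar satellite gene PCM1, PSD3, an exchange factor for ARF6, the adaptor gene SH2D4A, the TRAIL receptor gene TNFRSF10A, CCDC25 and KIF13B, with 1 peak each. Their scores ran from 33.7 at SH2D4A to 44.4 at KIF13B, with a median of 34.4. Their median width was 198 bp. None reached a score of 50, whereas 32.7% of the peaks beyond the boundary did. Of 31 genes of the short arm below 35 Mb that were listed for their place in cancer or development, 2 were named by a peak, ANGPT2 and PCM1. By gene body 3 of the 31 contained a peak centre, against 9 of all 227 protein-coding genes below 35 Mb (3.96%). ANGPT2 and MCPH1 overlap and contained the same centre. The median length of the 31 was 83.0 kb, and 4.76% of all protein-coding genes of 20 to 100 kb below 35 Mb contained a centre.

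In steps of 5 Mb, the 23 windows beyond the boundary held between 3 and 243 peaks, with a median of 62, whereas the 7 windows below it held at most 3 and 3 of them held none. The first window past the boundary, from 35 to 40 Mb, already held 92 peaks, so the density rose within a single step. It was followed by 14 peaks from 40 to 45 Mb, where the centromere begins. Counts then stayed between 53 and 75 per window from 45 to 70 Mb and rose to 120 from 70 to 75 Mb. The fullest window was that from 100 to 105 Mb, with 243 peaks named for 21 genes. Among those with many of its peaks were GRHL2, a grainyhead transcription factor of epithelial cells, with 43, and the ubiquitin ligase gene RNF19A, with 22. The window just before it held 127 peaks, and the 2 windows that begin at 120 Mb held 103 and 124. Together, the 5 windows with at least 100 peaks accounted for 717 peaks (45.2%).

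Between these full stretches lay others with few peaks. The windows from 105 to 110 Mb, 110 to 115 Mb and 115 to 120 Mb held 22, 4 and 19 peaks, directly after the fullest window. The window from 105 to 110 Mb had as much protein-coding gene body as the fullest window (3.15 and 3.16 Mb), whereas the next 2 had less, 1.69 and 1.66 Mb. The longest stretch without a peak, 4.09 Mb at chr8:111347339-115436130, contained a single protein-coding gene, CSMD3, a very large gene for a transmembrane protein with CUB and sushi domains. A stretch of 3.20 Mb at chr8:142008389-145207810 was of another kind, with 65 protein-coding genes and no peak. The genes in it include PSCA, a prostate surface antigen, PLEC, SCRIB and the LY6 family. A stretch of 3.74 Mb at chr8:90987592-94731182 held 11 protein-coding genes, among them RUNX1T1, and no peak. Across the 23 windows the number of peaks and the length of gene body had a Pearson r of 0.39, and the number of peaks and the number of protein-coding genes had an r of 0.17. These correlations are descriptions over neighbouring windows of a single library.

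Peaks beyond 35 Mb had a median score of 42.8, with an interquartile range of 37.1 to 55.1, and a maximum of 523. Over all peaks of the list the median was 40.9. A score of 100 or more was reached by 58 peaks (3.66%, Wilson 95% interval 2.84 to 4.70%), against 2.23% of all peaks of the list. These 58 peaks were named for 32 genes, and 46 of them lay in introns. They were not spread like the peaks in general, because 15 of them lay in the window from 35 to 40 Mb, which held 92 peaks, and 6 in the fullest window of 243 peaks. Windows from 90 to 95 Mb and 135 to 140 Mb, with 37 and 38 peaks, held 6 and 5 of them. Of the other 20 chromosomes with at least 100 peaks, 5 had a larger share of such peaks (chromosomes 5, 6, 11, 17 and 21), the largest being that of chromosome 17 (5.41%).

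**Figure D1:**
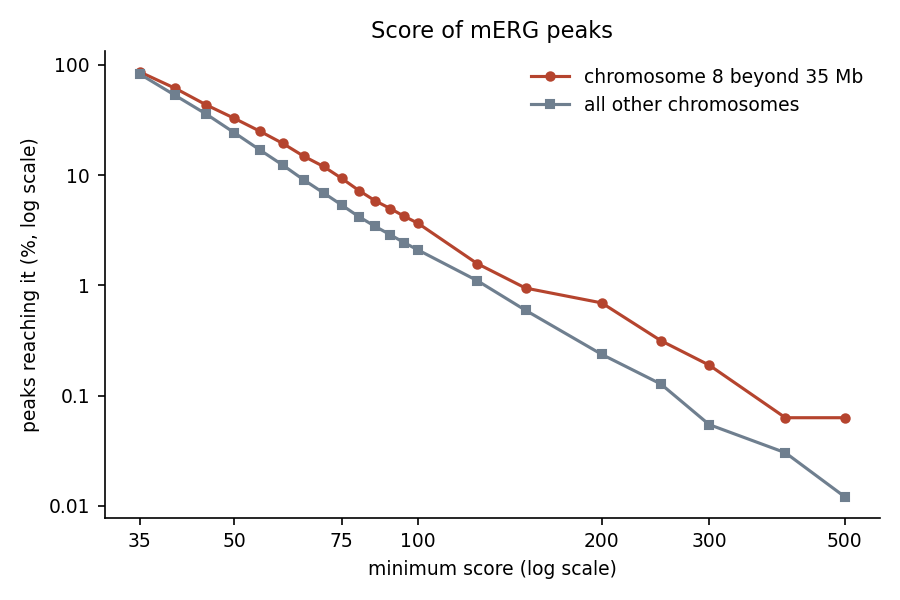
Percentage of mERG peaks that reach each minimum score (both axes logarithmic), for the 1586 peaks of chromosome 8 beyond 35 Mb (red circles) and the 16476 peaks of all other chromosomes and contigs (grey squares). At a minimum score of 50 the values are 32.7% and 24.2%, and at 100 they are 3.66% and 2.09%; the points from 300 upwards rest on 3 peaks or fewer of chromosome 8.

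Peaks were also wider than in the list as a whole. The median width was 545 bp against 400 bp for all peaks, and 161 peaks (10.2%, interval 8.76 to 11.7%) were at least 1 kb wide, against 5.77% of all peaks. This share was higher on chromosomes 5, 6, 11 and 17 among the other 20 chromosomes with at least 100 peaks. Of those 20, only chromosome 17 had a higher median width (558 bp) or a higher median score (43.8). Width and score rise together in this list, with a Pearson r of 0.72 between their logarithms over the peaks beyond 35 Mb. Widths are also given within ranges of score. Peaks scoring from 36 to 40 had a median width of 464 bp beyond 35 Mb and 345 bp on other chromosomes, and those from 50 to 100 had 742 and 564 bp. Neighbouring peaks lay close together, with a median of 3585 bp from the end of a peak to the start of the next, against 7868 bp over the list. The same median was 2687 bp on chromosome 17 and 5583.5 bp on chromosome 20. The stretch was chosen with its peak density known, so a shorter spacing than over the list partly restates that density. None of these differences was tested.

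Most peaks lay within genes and away from their starts. Introns held 1373 peaks (86.6%, interval 84.8 to 88.2%), intergenic sequence 135 (8.51%), exons 33 (2.08%) and 3′ UTRs 20 (1.26%), and 2 peaks were placed in promoters. Over the whole list introns held 87.6% and promoters 0.277%, so the location classes beyond 35 Mb were close to those of all peaks. Of the intronic peaks, 28.6% lay in the first intron, against 32.1% over the list. Only 5 peaks (0.315%) had their centre within 1 kb of a TSS, against 0.481% of all peaks of the list. The median distance was 18564 bp downstream, against 16662 bp over the list.

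Along genes of at least 20 kb, peak centres were found in all 10 equal parts of the gene. The median position was 46.8% of the way from the 5′ end, against 44.4% on other chromosomes. Part 8 from the 5′ end held 11.4% of centres beyond 35 Mb and 9.27% elsewhere, the widest gap of the 10.

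The ETS core motif CCGGAAGT was sought on both strands within 100 bp of each peak centre, with at most 1 mismatch outside GGAA. It was found at 42 peaks (2.65%, interval 1.97 to 3.56%), at 2.62% of all peaks, and in 2.62% of the windows placed 2 kb to either side of the peaks beyond 35 Mb. The share at the centres was thus close to that in the surrounding sequence. GGAA alone, which this motif contains, was present at 84.9% of centres and in 79.3% of the windows to the side. The median GC content within 100 bp of the centre was 37.3%, against 38.3% in the windows to the side and 38.3% at all peaks. Repeats annotated at the peak centre were LINEs in 15.9% and SINEs in 12.6% of peaks, against 18.0% and 14.2% over the list. A match says only that these letters occur in the window.

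The peaks beyond 35 Mb named 232 genes, 186 of them protein-coding and 44 non-coding RNA genes. Of these, 57 (24.6%) were named by 10 or more peaks, against 7.90% of all genes named in the list, and they took 1005 of the peaks (63.4%). Of the 232 genes, 58 had only 1 peak, against 44.1% of genes over the list. By gene bodies, 170 of 482 protein-coding genes beyond 35 Mb (35.3%, interval 31.1 to 39.6%) contained at least 1 peak centre, against 19.6% of all protein-coding genes of the annotation and 9 of 227 below 35 Mb (3.96%). Longer genes contained a centre more often on both sides of the boundary. Among genes under 20 kb, 6.83% contained a peak centre beyond 35 Mb and 2.92% in the whole annotation. Among genes of at least 100 kb the shares were 55.6% and 42.9%, and 5 of 43 such genes below 35 Mb (11.6%) contained a centre. The stretch beyond 35 Mb was chosen with its peak density known. Its higher counts of peaks per gene and higher shares of genes with a centre partly restate that density.

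GRHL2 was named by most peaks, 43, with a highest score of 145 at chr8:102601564-102603258 in its intron 7. NCOA2, a coactivator of steroid receptors that include the androgen receptor, followed with 41 peaks and a highest score of 136 in intron 1. TPD52, a vesicle traffic gene often overexpressed in prostate cancer, had 38, and PTK2, which encodes focal adhesion kinase, had 37. Median scores were 44.8 at GRHL2, 41.7 at TPD52 and 44.1 at PTK2. Other genes with many peaks were PRDM14, a transcription factor of pluripotent cells (30 peaks), AGO2, the Argonaute protein that cleaves RNA targets (28 peaks), the gene FAM110B (27 peaks) and ARFGEF1, an exchange factor for ARF proteins of the Golgi (26 peaks). With them stood CSPP1, a gene of the spindle poles, TAF2, a subunit of TFIID, and ASAP1-IT2, a transcript from an intron of ASAP1, with 24 peaks each.

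Some of these names came from the closest TSS and not from the gene that held the peaks. All 30 peaks named for PRDM14 lay inside NCOA2, which thereby contained 71 peak centres over 294 kb. Of the 28 named for AGO2, 26 lay inside PTK2, which contained 63. ASAP1, a GTPase-activating protein for ARF proteins, was named by 11 peaks, but its body held 50, of which 24 carried the name of ASAP1-IT2 and 15 that of ASAP1-IT1. Per 100 kb of gene, TAF2 (26.4 peak centres), GRHL2 (24.3) and NCOA2 (24.1) were covered at like densities, PTK2 had 18.3 and ASAP1 12.8. Large genes were not covered as a rule, since 27 of 54 protein-coding genes of at least 200 kb beyond 35 Mb contained no peak centre (50.0%; 57.2% in the whole annotation).

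The strongest peak lay in intron 8 of NBN at chr8:90968907-90976002, with a score of 523 and a width of 7096 bp. NBN encodes nibrin, a subunit of the complex that senses double-strand breaks. It was the only peak beyond 35 Mb to score over 400, and it was not isolated, since the NBN body held 18 peak centres with a median score of 73.7. A block of 19 peaks named for NBN and its neighbour OSGIN2 spanned 51.7 kb, and 6 of them scored 100 or more. At its far end began the empty stretch of 3.74 Mb described above.

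TACC1, which encodes a centrosomal coiled-coil protein, had the next strongest peak and 3 of the 5 widest. The peak at chr8:38667807-38676622 in intron 2 scored 395 and, at 8816 bp, was the widest beyond 35 Mb. A second peak in the same intron, at chr8:38657276-38663571, scored 310 over 6296 bp, and another in that intron was 4109 bp wide. In all, 17 peaks were named for TACC1. The other wide peaks were that of NBN and a peak of 4074 bp at 8q24 named for PCAT2. That peak had a score of 46.6, low for its width, since peaks with scores from 40 to 50 had a median width of 521 bp.

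MIR1204, a microRNA gene of the PVT1 locus, came next after TACC1 by highest score, with 295 at chr8:128834975-128837827. MRPS28, a gene of the mitochondrial ribosome, followed with 257 at chr8:80959754-80962344, although this site lies inside TPD52. The microRNA genes MIR30D and MIR30B had peaks scoring 225 and 222 within a block of 15 peaks that spanned 28.9 kb. Of these 15, 13 were intergenic in the list and 5 scored 100 or more. The remaining genes among the 10 with the highest scores were TAF2 (208, intron 2), NSD3 (203, intron 2), GRHL2 (145) and VIRMA (138), a subunit of the complex that writes N6-methyladenosine on RNA. NSD3, which encodes a methyltransferase of histone H3, had 6 of its 19 peaks at a score of 100 or more, the most of any gene beyond 35 Mb.

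At 8q24, the interval known for inherited prostate cancer risk, 8 of 16 listed genes were named by a peak and 8 were not. By gene body, 5 of the 12 found in GENCODE contained a peak centre, and 4 of these 5 were long non-coding RNA genes, so the share of 35.3% for protein-coding genes beyond 35 Mb is not a like one. MYC was not, and no peak lay within it or within 67 kb of it; the closest centre was 67.5 kb away, in the block named for MIR1204. LRATD2, PCAT1, CASC19, CASC21, CASC8, CASC11 and CCDC26 were also named by 0 peaks. PVT1, the long non-coding RNA gene downstream of MYC, was named by 12 peaks, the strongest scoring 104. TRIB1, a pseudokinase gene, was named by 7, all of which lay inside NSMCE2, and TMEM75 by 6. PCAT2 was named by 3 peaks, GSDMC, a gasdermin gene, by 2, and PRNCR1, CCAT1 and POU5F1B by 1 each. By gene body, GSDMC and PRNCR1 contained 0 peak centres, whereas PCAT1 contained 6, CASC19 4 and CASC8 1.

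Around MYC the peaks formed a dense block on the PVT1 side, with sparse flanks. From chr8:128822264 to 129099177, 57 peaks covered 277 kb. They carried the names of MIR1204, PVT1, TMEM75 and of further microRNA genes of the same locus. In the GENCODE annotation, where PVT1 extends over 393 kb, its body contained 58 peak centres, or 14.8 per 100 kb. The highest score among them was 295, at a peak named for MIR1204. Upstream, 4 wide peaks named for PRNCR1 and PCAT2 stood within 65.2 kb, with scores from 43.2 to 46.6 and a median width of 2372 bp. The same annotation places these 4 peaks in a long form of PCAT1, which the peak list does not use. Stretches of 1697 kb before them and of 402 kb between the POU5F1B and MIR1204 peaks, the latter with MYC inside, had no peak. Past PVT1, a further 1689 kb that includes CCDC26 had none.

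Of 19 genes listed from segments of 8q that are commonly gained in prostate cancer, 16 were named by a peak (84.2%, interval 62.4 to 94.5%) and 16 contained a peak centre. Their median length was 86.1 kb, and 45.2% of all protein-coding genes of 20 to 100 kb beyond 35 Mb contained a centre. Besides GRHL2, NCOA2, TPD52 and PTK2, with 43 to 37 peaks, these included ELOC, NBN, YWHAZ, MTDH, EBAG9, EIF3H, SQLE, ATAD2, WASHC5, ASAP1 and NDRG1. The 3 genes not named were TRPS1, a GATA-type repressor, RAD21, a cohesin subunit, and PSCA. RAD21 nevertheless contained 3 peak centres, which the list assigned to its antisense neighbour RAD21-AS1, with a highest score of 73.4. TRPS1 was 868 kb and PSCA 1444 kb from the closest peak. NDRG1, an androgen-induced gene, was named by 2 weak intergenic peaks, the stronger with a score of 34.1, and had no centre in its body. The list of these genes was drawn up with earlier results of the same peaks known, so its share supports nothing on its own.

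The short-arm genes next to the centromere, from 8p11 to 8p12, were named by peaks for 12 of 23, and 10 of the 23, at a median length of 50.3 kb, contained a peak centre, beside 45.2% of all protein-coding genes of 20 to 100 kb beyond 35 Mb. Their peaks were concentrated in a segment from LSM1 to ADAM9, where 74 peaks lay within 869 kb. Their median score was 55.7, and 15 scored at least 100. NSD3 (19 peaks, highest score 203), ADAM9, a metalloprotease gene (18 peaks, 130), TACC1 (17 peaks, 395) and the lipid phosphatase gene PLPP5 (10 peaks, 62.0) had the most. FGFR1, a receptor tyrosine kinase gene amplified in some cancers, lies inside the segment and had no peak, the closest being 24.8 kb away. KAT6A, PLEKHA2, DDHD2, BRF2, ANK1, IKBKB, POLB and FNTA carried the other peaks of the list. Of the 9 peaks that lay inside NSD3 but were not named for it, all 9 carried the name of PLPP5.

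The lists by function that follow differ in gene length, and the share of protein-coding genes beyond 35 Mb that contained a peak centre was 35.3% at any length, 45.2% at 20 to 100 kb and 55.6% at 100 kb or more. Among genes of DNA replication, repair and cohesion, 10 of 15 were named by a peak and 11 contained a centre, at a median length of 39.3 kb. NSMCE2, a SUMO ligase of the SMC5/6 complex, and RAD54B, a recombination gene, had 14 peaks each, none of which scored 100 or more. UBE2V2 had 10 peaks and NBN 8. PRKDC, TERF1, RRM2B, DSCC1, ATAD2 and POLB were the others, and MCM4, MCMDC2, RAD21, RECQL4 and TONSL were named by none. Among transcription factors and chromatin genes, 14 of 23 were named and 15 contained a centre, at a median length of 123 kb. After GRHL2, NCOA2 and TAF2 came ZBTB10, a zinc finger repressor, with 20 peaks and a highest score of 123. NSD3, TCEA1, ZNF704, KAT6A, PHF20L1, CHD7, ZHX1, ZHX2, EYA1 and MED30 were also named. ZFHX4 was named by 0 peaks yet held 16 centres, of which 14 were assigned to its antisense transcript ZFHX4-AS1.

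Of 17 genes of RNA processing and translation, 10 were named and 11 contained a peak centre, at a median length of under 40 kb (45.2% of all protein-coding genes of 20 to 100 kb beyond 35 Mb did). AGO2 led by name only, and INTS8, an Integrator subunit (11 peaks, highest score 70.7), EIF3H, a subunit of initiation factor eIF3 (10 peaks, 90.7), and YTHDF3, a reader of N6-methyladenosine (9 peaks, 57.3), followed. The INTS8 body contained 5 peak centres, with a highest score of 69.5, and the peak named for it that scored 70.7 lay inside DPY19L4. STAU2, EIF3E, POP1, VIRMA, TRMT12 and RPL7 had fewer peaks by name. The ribosomal protein genes RPL30 and RPL8 had none by name or by gene body. Of 18 genes of ubiquitin pathways and membrane traffic, 15 were named and 15 contained a centre, at a median length of 73.4 kb. ARFGEF1 (26 peaks), RNF19A (22 peaks, highest score 108) and RAB2A, a small GTPase of the early secretory pathway (19 peaks, 73.7), were among those with the most. UBE2W, WWP1, VPS13B, ASAP1, UBXN2B, WASHC5, VCPIP1, RNF139, TRAPPC9, RAB11FIP1 and COPS5 were also named.

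Long genes of neurons, channels, adhesion and matrix had the lowest share named by a peak among the lists beyond the boundary, 9 of 22 (40.9%, interval 23.3 to 61.3%). By gene body, 6 of the 22 contained a centre, against 35.3% of all protein-coding genes there and 55.6% of those of at least 100 kb. Their median length was 316 kb. RIMS2, a scaffold gene of the presynaptic active zone, had 23 peaks, none above a score of 47.7. COL14A1 had 9 peaks by name, all of which lay inside its neighbour DEPTOR, an inhibitor of mTOR. SLCO5A1 had 3 peaks and EXT1 2, and CSMD3, NKAIN3, SNTB1, KCNQ3 and FAM135B had 1 each. The single peaks named for CSMD3, SNTB1 and FAM135B lay outside these genes, at 987, 341 and 450 kb from the TSS. None of the 9 named genes of this list had a peak by name that scored 50 or more, whereas 142 of all 232 genes named beyond 35 Mb did. This list, too, was drawn up with earlier results of the same peaks known.

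Of the study's list of ERG/EZH2 targets deregulated in castration-resistant disease, 52 genes were found beyond 35 Mb, and 29 of them (55.8%, interval 42.3 to 68.4%) were named by a peak. Over the whole list of 1042 symbols the share was 37.4%. The stretch was chosen with its peak density known, so a higher share than over the whole list partly restates that density. TPD52 (38 peaks), RIMS2 (23), WWP1, a ubiquitin ligase (13), and VPS13B, a lipid transfer gene (12), had the most. The others were ASAP1, EIF3H, COL14A1, STK3, MTFR1, ATAD2, KAT6A, NCALD, FAM49B, MAL2, DERL1, EFR3A, MTBP, OXR1, SLCO5A1, EXT1, GDAP1, PAG1, SYBU, ZHX2, CSMD3, EYA1, KCNQ3, LAPTM4B and MED30. Below 35 Mb, 3 targets were found and 1 of them, PSD3, was named. By gene body, 27 of the 52 contained a peak centre, against 35.3% of all protein-coding genes beyond 35 Mb and 55.6% of those of at least 100 kb; the median length of the 52 was 131 kb. These differences were not tested.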

How the data were processed

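The analysis used the list of MACS peaks on hg19 that the authors deposited for 1 mERG ChIP library and 1 control from VCaP cells, annotated with HOMER; the submitters' processing notes also name Bowtie2 and Picard. MACS version and threshold are not given in the sources used here. The deposited score is the negative log10 of the p-value from MACS, times 10; depth is unknown. Genes are those of the closest TSS in the list; gene bodies came from GENCODE release 44 on GRCh37, the same assembly, and every peak end lay within its chromosome. Genes named were the 10 with most peaks (12 with ties), the 10 with the highest score, those of the 5 widest peaks, the 3 with most peaks in the fullest window, listed genes with a peak and every gene with a peak below 35 Mb. Not every gene the rule covers is given in the text. Genes outside this rule were chosen after their values were seen. The members and lists were chosen with earlier results of these data known. No test was made. Intervals are Wilson 95% and cover counting error only. Counting was tested on simulated data. Alternatives were a higher minimum score, no extreme peaks, the long arm only, merged peaks, other boundaries, windows and motif, and GENCODE gene bodies. Software was Matplotlib 3.10.9, SciPy 1.17.1, pandas 2.3.3 and NumPy 2.4.6 under Python 3.11.15.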

Additional observations from a re-analysis of the deposited data

How the results depend on the processing

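No paired analysis was possible because no value here comes from a comparison of replicates. Under the alternatives none of the main results reversed, and those not given below, apart from the counts of single genes, stayed within the 95% interval of the main value, or within 1.5 times it where no interval was made. With the stronger 50% of peaks by score, 908 peaks lay beyond 35 Mb (8.15 per Mb), 10.0% of the peaks kept, with a median score of 52.2, a median width of 658.5 bp and 6.39% at a score of 100 or more. Only 1 peak then lay below 35 Mb, so that the ratio of densities, 285, rests on that peak. With a minimum score of 50, 519 peaks (4.66 per Mb, 11.5% of the peaks kept) named 142 genes, with a median score of 63.1, a median width of 800 bp and 11.2% at 100 or more. No ratio could be given, since 0 peaks remained below. Genes with a peak then numbered 4 for 8q24, 7 for 8p11 to 8p12, 13 for the ERG/EZH2 targets, 0 for the long neuronal list and 0 for the list below 35 Mb. Fewer peaks by construction lower these counts. Without the top 1% of scores and peaks wider than 5 kb, 2.24% of peaks scored 100 or more, against 1.23% of all peaks of the list under the same filter. The long arm alone held 8.18% of all peaks. With the boundary at 40 Mb the ratio was 5.62, because the peaks from 35 to 40 Mb then counted below it, and with the boundary at 30 Mb it was 51.1. By GENCODE gene models, introns held 88.4% of centres. By gene body, 5 genes of 8q24 had a peak. Among the most-peaked genes, the same count rose from 41 to 71 at NCOA2 and from 37 to 63 at PTK2, both then above GRHL2 (43), and fell from 30 to 0 at PRDM14, from 28 to 2 at AGO2 and from 24 to 0 at ASAP1-IT2. In windows of 2 Mb the fullest held 128 peaks. GGAA alone was found at 84.9% of centres. The list gives no depth, and a gene without a peak may lie below the threshold of the caller.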

Other observations

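On chromosome 8 the peak identifiers skip 4 numbers, all between the peaks that end at 42934825 and start at 46867912, around the centromere; whether called peaks were left out there was not settled. Peaks scoring 100 or more beyond 35 Mb had a median width of 1865 bp, against 1668 bp on other chromosomes.

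DEPTOR, an inhibitor of mTOR that was in no list, contained 18 peak centres, 9 of them named for COL14A1. PCMTD1 had 14 peaks by name with a highest score of 112, and 18 centres in its body. DCAF13 had 12 centres in 28.7 kb, or 41.8 per 100 kb. These genes were picked after their values were seen.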
